A study of Mus musculus with 6 samples.

Results

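Selenoproteins carry selenocysteine, an amino acid with selenium in the place of the sulfur of cysteine, and 10 of their genes were followed here in mouse embryonic fibroblasts (MEFs) without H2AX. The 10 genes were taken by name, and each had a probe set that the array annotation gives to that gene alone, out of 19938 genes measured. They were Selenop (formerly Sepp1), Gpx3, Gpx1, Gpx4, Selenof (Sep15), Selenok (Selk), Selenos (Vimp), Selenon (Sepn1), Selenow (Sepw1) and Sephs2. Total RNA was measured on 6 Affymetrix Gene ST arrays, of which 3 carried RNA from wild-type MEFs and 3 RNA from MEFs of H2AX mutant mice, labelled H2A.X Knockout. Both genotypes were grown untreated in the same serum-containing medium, for which the labels name no selenium supplement. Array values are log2 expression values as normalized by the authors, so that a step of 1 is a doubling, and a difference between genotypes is a log2 fold change, knockout minus wild-type. Calls of higher or lower expression were made by limma, which fits all genes together, where the p adjusted over all genes was under 0.05.

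Selenocysteine is read from UGA, otherwise a stop codon, with the help of a stem-loop (SECIS) in the untranslated end of the transcript, of proteins bound to it and of a transfer RNA of its own. Many selenoproteins reduce peroxides or handle disulfides, among them the glutathione peroxidases (GPX) and the thioredoxin reductases, and others sit in the endoplasmic reticulum (ER), where proteins fold. Selenoprotein P differs in that it is secreted with many selenocysteines in each molecule, carries selenium from the liver to other tissues and is taken up by receptors of the LDL receptor family. When selenium is scarce, some selenoprotein transcripts are lost sooner than others, Gpx1 being a classic case.

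The targeted gene, H2ax, lay between 8.96 and 9.18 on the wild-type arrays and between 7.67 and 7.77 on the knockout arrays (log2 fold change -1.34, limma adjusted p = 5.8e-07), although it is not known here whether its probes lie in the deleted part. The 3 measured Y-linked genes lay between 7.71 and 8.19 on the wild-type arrays and between 3.92 and 5.13 on the knockout arrays. The cells of the genotypes thus also differed in Y-linked expression, and whether by sex or by loss of the Y was not tested. No source names how many embryos or lines gave the cells. Loss of H2AX and the origin of the cells therefore cannot be told apart, and each p-value rests on array-to-array spread alone, which may be technical. Of 10 fibroblast markers, 5 were higher, 3 were lower and 2 were not called, where 33.4% of all genes were called. Their mean log2 value lay between 10.19 and 10.30 on wild-type and between 10.72 and 10.75 on knockout arrays. Collagen I (Col1a1, Col1a2), vimentin (Vim) and fibronectin (Fn1) lay above 11 on each array. Lumican (Lum) read from 6.71 to 7.09, and Thy1 read from 6.52 to 6.65 in wild-type cells. Thy1 and Dcn moved in opposite directions, by 4.03 and -2.15. Thy1 had the largest difference of the 10 markers, whose median difference was 0.28. The part of this shift in the results below was not tested.

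Selenoprotein P showed the largest difference of the 10 genes. On the wild-type arrays the Selenop transcript had log2 values of 7.96, 7.78 and 7.58, and on the knockout arrays of 6.73, 6.72 and 6.64. Each knockout array lay below each wild-type array, and the wild-type arrays were spread more widely than the knockout arrays. The means were 7.78 ± 0.19 (SD, n = 3) and 6.70 ± 0.05 (SD, n = 3), which differ by -1.08 (SE 0.09, 95% interval -1.29 to -0.87, limma adjusted p = 1.3e-05), a 2.11-fold decrease. Of all genes, 4.73% changed by more in either direction. Without wild-type replicate 1, the highest of the wild-type arrays, the difference was -0.99 (adjusted p = 4.3e-05), just short of a fold-change of 2. In RNA of a whole culture, fewer cells that express a gene and less RNA per cell cannot be told apart.

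Since Selenop is best known as a liver gene, markers of hepatocytes were read on the same arrays. None of the 4 measured markers was called (0 higher and 0 lower at an unadjusted p under 0.05 as well), and their mean value lay between 5.23 and 5.29 in wild-type and between 5.14 and 5.23 in knockout cells. Albumin (Alb), transthyretin (Ttr) and alpha-fetoprotein (Afp) read from 4.58 to 4.90 over the 6 arrays, a range that overlaps that of the Y-linked genes in knockout cells, and apolipoprotein A-I (Apoa1) read higher, from 6.36 to 6.84. Gpx3, the other secreted member and the peroxidase of blood plasma, gave 4.25, 4.42 and 4.38 in wild-type and 4.28, 4.40 and 4.29 in knockout cells. The groups overlap, and the difference was -0.03 (95% interval -0.18 to 0.13, limma adjusted p = 0.838). On every array its value lay below the first quartile of all probe sets, which was 4.80 to 4.85, so that little could be seen of a change in Gpx3.

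Besides Selenop, 3 members were lower in H2AX knockout cells, which were Selenon, Selenow and Selenof, and none was higher. Of all genes, 15.0% were lower and 18.4% were higher. Selenon, an ER membrane protein that takes part in calcium handling and is mutated in a congenital myopathy, had values of 9.27, 9.40 and 9.44 in wild-type and 8.77, 8.88 and 8.79 in knockout cells. It fell by 0.56 on the log2 scale (SE 0.07, adjusted p = 0.00017), or 1.47-fold. Selenow, a small cytosolic protein with a thioredoxin fold that is abundant in muscle, had values of 10.38, 10.45 and 10.36 in wild-type and 9.98, 9.84 and 9.95 in knockout cells. It fell by 0.47 (SE 0.07, adjusted p = 0.00036), or 1.39-fold. Selenof, an ER protein that binds the glycoprotein folding sensor UGGT, had values of 11.08, 11.08 and 11.10 in wild-type and 10.79, 10.66 and 10.71 in knockout cells. It fell by 0.37 (SE 0.06, adjusted p = 0.00121), or 1.29-fold. In each of these genes the genotypes did not overlap, which held for 44.8% of all genes. The gap between the means was several times the SD within either genotype.

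**Figure D1:**
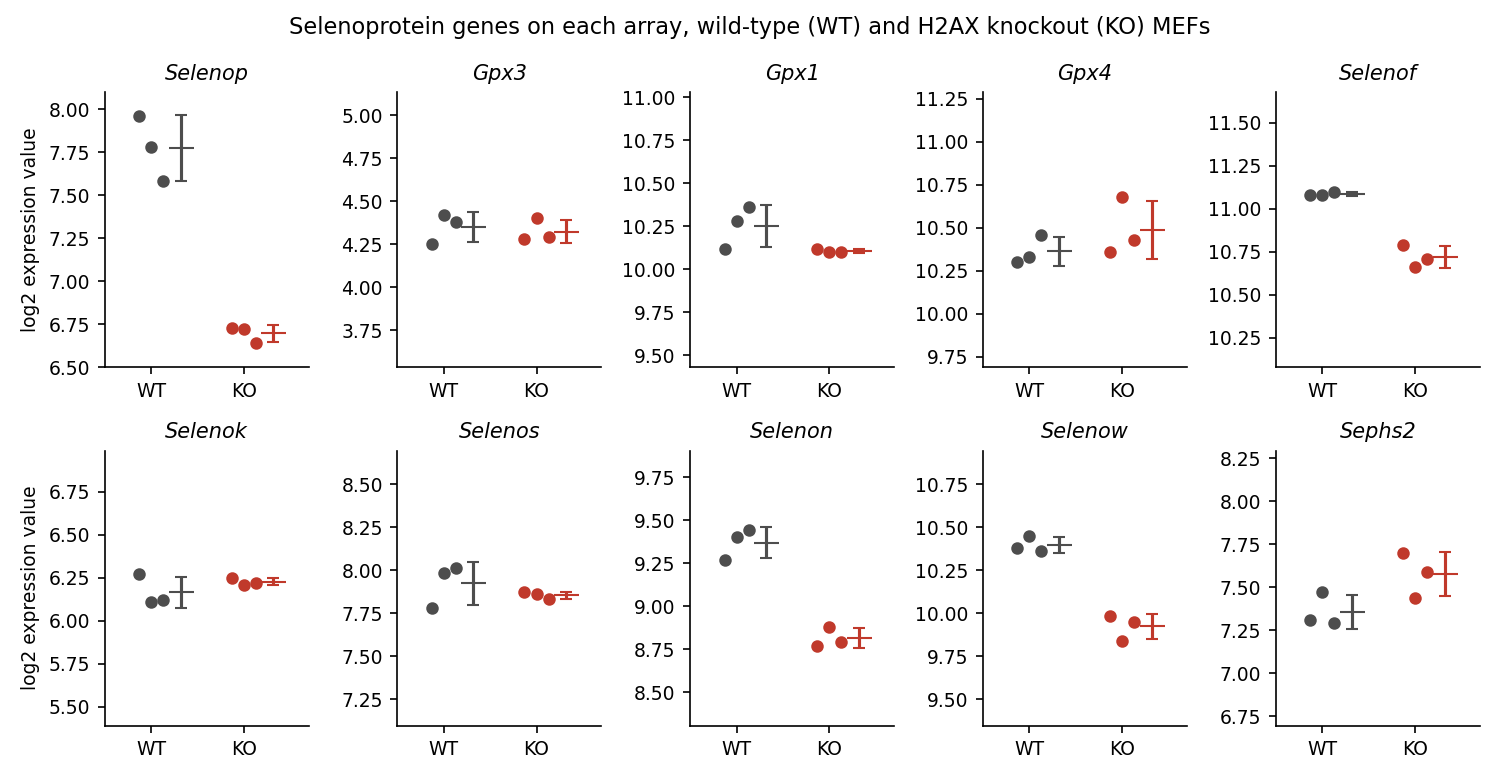
Log2 expression value on the y axis for each of the 10 selenoprotein genes, with 1 point per array for wild-type (WT, grey) and H2AX knockout (KO, red) MEFs and the mean ± SD (n = 3) beside them. All panels span the same number of log2 units. The genotypes are separate for Selenop, Selenof, Selenon and Selenow and overlap for the other 6 genes.

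The intracellular glutathione peroxidases were not called. Gpx1, the peroxidase of cytosol and mitochondria, gave 10.12, 10.28 and 10.36 in wild-type and 10.12, 10.10 and 10.10 in knockout cells. The wild-type arrays were spread while the knockout arrays lay within 0.03 of each other, at the level of the lowest wild-type array. The difference of -0.15 (95% interval -0.31 to 0.02, adjusted p = 0.167) was called without wild-type replicate 1, at -0.21 (adjusted p = 0.0388). Gpx4, which reduces lipid hydroperoxides in membranes and so restrains ferroptosis, gave 10.30, 10.33 and 10.46 in wild-type and 10.36, 10.68 and 10.43 in knockout cells. The groups overlap, with knockout replicate 2 highest, and the difference was 0.13 (95% interval -0.08 to 0.34, adjusted p = 0.345). The other probe set of Gpx4 differed by 0.12. RefSeq lists 2 pseudogenes of Gpx4 and 8 of Selenok, and whether the probes also read these is not given in the sources used here, so that both levels are uncertain.

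Selenok and Selenos, small ER membrane proteins, did not pass the test. Selenok, the partner of the palmitoyltransferase DHHC6, gave 6.27, 6.11 and 6.12 in wild-type and 6.25, 6.21 and 6.22 in knockout cells, a difference of 0.06 (95% interval -0.09 to 0.21, adjusted p = 0.558). A further probe set shared between Selenok and BC052688 read higher, at a wild-type mean of 8.12 against 6.17, and differed by 0.03 between genotypes. Selenos, which ties the ATPase VCP to the Derlin proteins for the disposal of misfolded proteins, gave 7.78, 7.98 and 8.01 in wild-type and 7.87, 7.86 and 7.83 in knockout cells. All knockout values of Selenos lay inside the wild-type range, and the difference was -0.07 (95% interval -0.24 to 0.10, adjusted p = 0.546). Sephs2, itself a selenoprotein, makes the selenophosphate from which selenocysteine is built. Its values were 7.31, 7.47 and 7.29 in wild-type and 7.70, 7.44 and 7.59 in knockout cells. It was the only member with an unadjusted p under 0.05 and an upward difference, at 0.22 (95% interval 0.03 to 0.41, adjusted p = 0.0725). Knockout replicate 2 lay within the wild-type range, and without it the difference was 0.29 and was called (adjusted p = 0.0194), as it was after quantile normalization (0.20, adjusted p = 0.0456).

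Counted together, 4 of the 10 genes were lower and none was higher, where 15.0% of all genes were lower, 18.4% were higher and 33.4% were called in either direction. With the dimmest 50% of genes left out, 2399 of 9969 genes were lower and 3095 were higher. Of the 8 members left in that set, 4 were lower and none was higher. Selenop was the only member past a fold-change of 2, which 3.18% of all genes passed downward. The genotypes did not overlap in 4 of the 10 genes, against 44.8% of all genes. The median difference of the members was -0.11, and that of all genes was 0.02. At these background shares, a called gene among 10 is common, and the counts are given as a description of a chosen list.

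**Figure D2:**
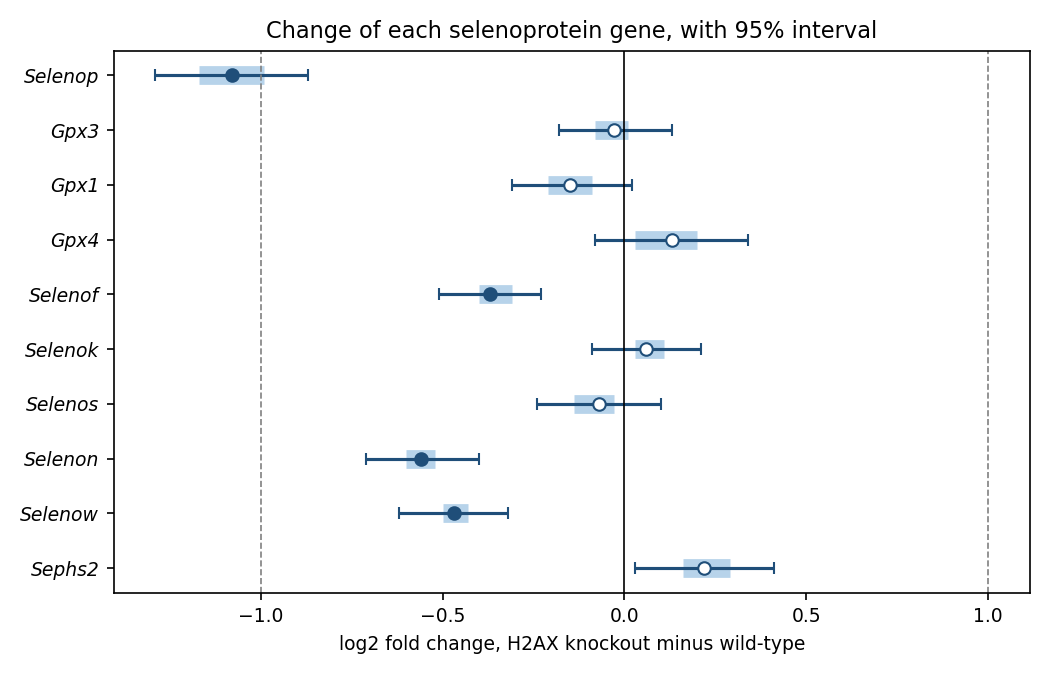
Log2 fold change, H2AX knockout minus wild-type, on the x axis for the 10 genes, with points for the estimate, bars for the 95% interval from limma and shaded bands for the range over the alternative settings. Filled points were called and open points were not, and a 2-fold change either way is marked by dashed lines. The bands of Selenop, Selenon, Selenow and Selenof stay below 0, from -1.17 to -0.99 for Selenop and from -0.40 to -0.31 for Selenof. Those of Gpx1 (-0.21 to -0.09) and Selenos (-0.14 to -0.03), with open points, also stay below 0. Those of Gpx4, Selenok and Sephs2 stay above 0, and the band of Gpx3 crosses 0.

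The bases around the transcription start of the 4 genes that fell are shown because these genes changed in the same direction. Each window runs from 250 bases before an annotated start to 50 bases after it, on the gene's strand, and comes from RefSeq with build GRCm38.p6. All 10 members had at least 1 window in that table. Both strands were searched for TGACNNNGC, the core of the antioxidant response element to which NRF2 binds, for TATAAA, the TATA box, and for GTAAACA, a site of forkhead box O factors, of which FOXO1 is known to act on Selenop in liver. These motifs do not overlap each other in the windows printed, where capitals mark them.
Selenop, chr15:3270727-3271026, plus strand: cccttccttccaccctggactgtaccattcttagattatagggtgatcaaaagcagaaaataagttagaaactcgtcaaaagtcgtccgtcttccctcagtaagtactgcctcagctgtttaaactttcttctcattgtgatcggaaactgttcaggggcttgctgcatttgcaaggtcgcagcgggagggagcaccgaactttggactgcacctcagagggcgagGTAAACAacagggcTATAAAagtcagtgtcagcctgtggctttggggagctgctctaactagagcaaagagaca
Selenon, chr4:134552117-134552416, minus strand: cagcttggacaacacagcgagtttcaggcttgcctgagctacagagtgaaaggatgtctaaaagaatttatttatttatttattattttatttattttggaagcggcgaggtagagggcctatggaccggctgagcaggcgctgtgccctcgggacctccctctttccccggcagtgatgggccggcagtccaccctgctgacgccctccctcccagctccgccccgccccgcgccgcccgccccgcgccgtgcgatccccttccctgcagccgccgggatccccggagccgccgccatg
Selenow, chr7:15922322-15922621, minus strand: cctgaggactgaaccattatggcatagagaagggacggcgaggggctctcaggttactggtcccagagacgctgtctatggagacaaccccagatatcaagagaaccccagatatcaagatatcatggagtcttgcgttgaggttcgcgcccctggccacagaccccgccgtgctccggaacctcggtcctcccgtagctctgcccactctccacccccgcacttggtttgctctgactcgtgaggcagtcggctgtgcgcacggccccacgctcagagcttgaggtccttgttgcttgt
Selenof, chr3:144570177-144570476, plus strand: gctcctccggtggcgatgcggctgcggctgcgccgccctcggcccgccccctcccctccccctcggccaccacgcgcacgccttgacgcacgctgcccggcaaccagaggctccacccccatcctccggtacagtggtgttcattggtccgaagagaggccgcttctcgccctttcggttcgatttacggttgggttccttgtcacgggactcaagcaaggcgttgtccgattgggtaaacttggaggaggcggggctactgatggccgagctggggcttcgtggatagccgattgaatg

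Of 3 annotated starts of Selenop, the one shown holds GTAAACA, beginning 24 bases before the start, and TATAAA, beginning 10 bases before it, and the other two hold none of the 3 motifs. Among all 32851 windows, GTAAACA is found in 3.65% and TATAAA in 13.6%. Counted by gene, where a gene may have several windows as Selenop has, the shares are 4.05% and 15.7%. Matches were taken wherever they lay in a window, so that TATAAA was not required to lie where a TATA box acts. The windows of Selenon, Selenow and Selenof hold none of the 3 motifs. The core TGACNNNGC, found in 12.4% of all windows, is in the window of Selenok alone among the members, beginning 44 bases before the start, and Selenok was not called. TATAAA is also in the window of Sephs2, beginning 29 bases before the start. The Selenop window shown has 8 CG dinucleotides, near the median of 7 over all windows, and the windows of its other starts have 4 each. Those of Selenow, Selenon and Selenof have 17, 24 and 29. A match says that these letters are present and nothing about binding.

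Of the remaining 14 selenoprotein genes of the mouse, 3 were higher, 2 were lower and 9 were not called, close to the shares of all genes that were higher (18.4%) and lower (15.0%). Selenoo, a mitochondrial pseudokinase that attaches AMP to proteins, had values of 8.45, 8.47 and 8.43 in wild-type and 7.87, 8.0 and 7.90 in knockout cells and fell by 0.52 (adjusted p = 0.00013). Txnrd2, the mitochondrial thioredoxin reductase, fell by 0.38 (adjusted p = 0.00535), which missed the threshold in the gene-by-gene test named in the methods (adjusted p = 0.0571). The cytosolic enzyme Txnrd1, a known NRF2 target, had overlapping groups and a difference of -0.13 (95% interval -0.36 to 0.11, adjusted p = 0.419). Txnrd3, thioredoxin glutathione reductase, was higher by 0.46 (adjusted p = 0.0257), a call lost when wild-type replicate 1 (adjusted p = 0.0623), knockout replicate 1 (adjusted p = 0.0802) or knockout replicate 3 (adjusted p = 0.0733) was left out. It was also lost with the replicate block (adjusted p = 0.0538), with adjustment over all probe sets (adjusted p = 0.077) and in the gene-by-gene test (adjusted p = 0.176). The deiodinases Dio1, Dio2 and Dio3, which convert thyroid hormone, and Gpx2 and Selenov, known from gut and testis, read from 4.31 to 5.00 and were not called.

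The list of transcripts known to be lost early when selenium is scarce held 4 genes, of which 2 were higher, 1 was lower and 1 was not called, where 33.4% of all genes were called. All 4 also belong to the selenoproteins counted above, and the 2 that rose are among the 3 higher genes of the other 14. Selenow was lower and Gpx1 was not called, as given above, whereas Msrb1, which repairs oxidized methionine, rose by 0.29 (adjusted p = 0.00707) and the nucleolar protein gene Selenoh rose by 0.26 (adjusted p = 0.0206). Msrb1 gave 8.96, 9.0 and 9.04 in wild-type and 9.20, 9.32 and 9.36 in knockout cells, with no overlap. Selenoh gave 7.74, 7.83 and 7.64 in wild-type and 7.97, 8.10 and 7.94 in knockout cells, also without overlap, and missed the threshold once wild-type replicate 3 (adjusted p = 0.0788) was dropped, or knockout replicate 2 (adjusted p = 0.0509). The Selenoh call was also lost after quantile normalization (adjusted p = 0.0532) and in the gene-by-gene test of the methods (adjusted p = 0.0786).

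Of 11 genes of the machinery that makes and inserts selenocysteine, 2 were higher, 1 was lower and 8 were not called. The median difference was 0.03. Of all genes 33.4% were called, and 5494 of 9969 when the dimmest 50% of genes were left out. On each array, each machinery gene read above at least 51.5% of all genes. The SECIS-binding protein gene Secisbp2 differed by -0.10 (95% interval -0.27 to 0.07, adjusted p = 0.371) and the elongation factor gene Eefsec by -0.10 (adjusted p = 0.486). Secisbp2l, the paralog of Secisbp2, had values of 9.19, 9.18 and 9.05 in wild-type and 8.31, 8.06 and 8.26 in knockout cells and fell by 0.93 (SE 0.08, adjusted p = 1.4e-05). Sars, which charges the selenocysteine transfer RNA with serine as well as serving ordinary serine codons, rose by 0.49 (adjusted p = 0.00038). Pstk, the kinase that acts on that serine, rose by 0.38 (adjusted p = 0.0192), a call lost without wild-type replicate 1 (adjusted p = 0.0735) or 3 (adjusted p = 0.0669) or knockout replicate 3 (adjusted p = 0.0838). It was also lost with adjustment over all probe sets (adjusted p = 0.0581) and in the gene-by-gene test (adjusted p = 0.135). Sepsecs, which completes the synthesis with selenophosphate, differed by 0.12 (adjusted p = 0.383), and Sephs1, the paralog of Sephs2 that does not make selenophosphate, by 0.10 (adjusted p = 0.423).

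Of 3 receptors known to take up selenoprotein P, Lrp8 and Lrp1 were lower and Lrp2 was not called. Lrp8 (ApoER2), the receptor of brain and testis, gave 9.38, 9.37 and 9.31 in wild-type and 8.76, 8.76 and 8.75 in knockout cells. The values within a genotype lay close together, and the gene fell by 0.59 (SE 0.06, adjusted p = 3.3e-05). Lrp1, a receptor with many ligands, gave 11.82, 11.86 and 11.83 in wild-type and 11.15, 11.44 and 11.25 in knockout cells and fell by 0.56 (SE 0.08, adjusted p = 0.0004). Lrp2 (megalin), the receptor of the kidney, read low, from 4.91 to 5.13, with a difference of -0.12 (adjusted p = 0.195), although its genotypes did not overlap. Of the 6 genes of selenium handling, 2 were lower, none was higher (also at an unadjusted p under 0.05) and 4 were not called, where 15.0% of all genes were lower. Among those not called was selenocysteine lyase (Scly), which recovers selenium from selenocysteine, at -0.04 (adjusted p = 0.785).

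**Figure D3:**
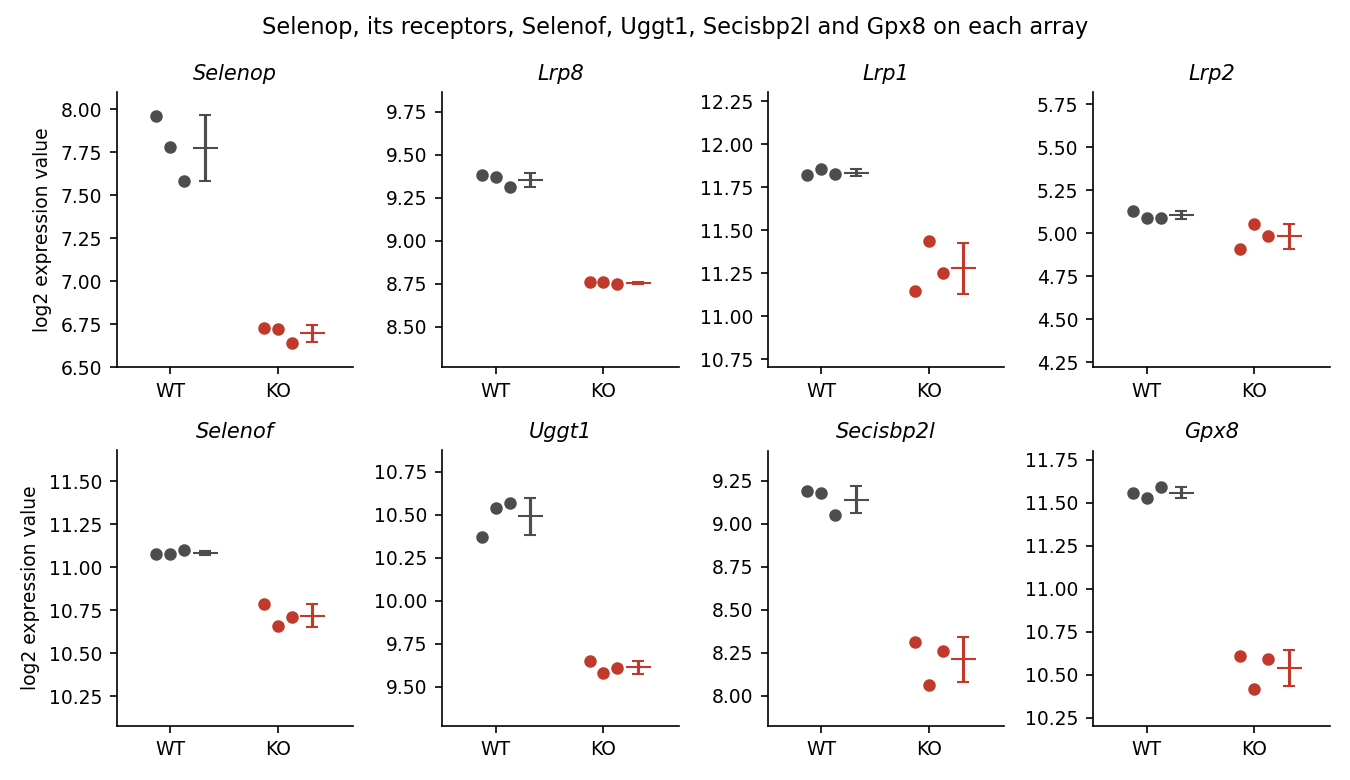
Log2 expression value on the y axis, with 1 point per array and the mean ± SD (n = 3), for Selenop and its receptors Lrp8, Lrp1 and Lrp2 in the upper row and for Selenof, its binding partner Uggt1, Secisbp2l and Gpx8 in the lower row, in wild-type (WT, grey) and H2AX knockout (KO, red) MEFs. All panels span the same number of log2 units. All genes but Lrp2, whose difference of -0.12 was not called, were lower in knockout cells.

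Among ER proteins that work with Selenof, Selenok or Selenos, 2 of 9 measured were higher, 2 were lower and 5 were not called, where 18.4% of all genes were higher and 15.0% were lower. Uggt1, the folding sensor to which Selenof binds, had values of 10.37, 10.54 and 10.57 in wild-type and 9.65, 9.58 and 9.61 in knockout cells. It fell by 0.88 (SE 0.07, adjusted p = 8.3e-06), and its paralog Uggt2 had a difference of 0.19 (95% interval 0.02 to 0.35, adjusted p = 0.0881). Sel1l, an adaptor of ER-associated degradation, fell by 0.50 (adjusted p = 0.00074), while its ligase partner Syvn1 rose by 0.31 (adjusted p = 0.00508). Zdhhc6, the DHHC6 partner of Selenok, rose by 0.47 (adjusted p = 0.00084). Vcp and Derl1, which work with Selenos, had differences of -0.06 (adjusted p = 0.538) and -0.17 (adjusted p = 0.0655).

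The mouse also has glutathione peroxidases with cysteine in the place of selenocysteine, and of 4 such genes 2 were lower, none was higher (also at an unadjusted p under 0.05) and 2 were not called, where 15.0% of all genes were lower. Gpx8, a peroxidase of the ER membrane, gave 11.56, 11.53 and 11.59 in wild-type and 10.61, 10.42 and 10.59 in knockout cells. It fell by 1.02 (SE 0.07, adjusted p = 2.6e-06), close in size to Selenop. Gpx7, its relative in the ER lumen, fell by 0.54 (adjusted p = 0.00124), and Gpx5 and Gpx6 read from 4.04 to 4.79 and were not called.

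**Figure D4:**
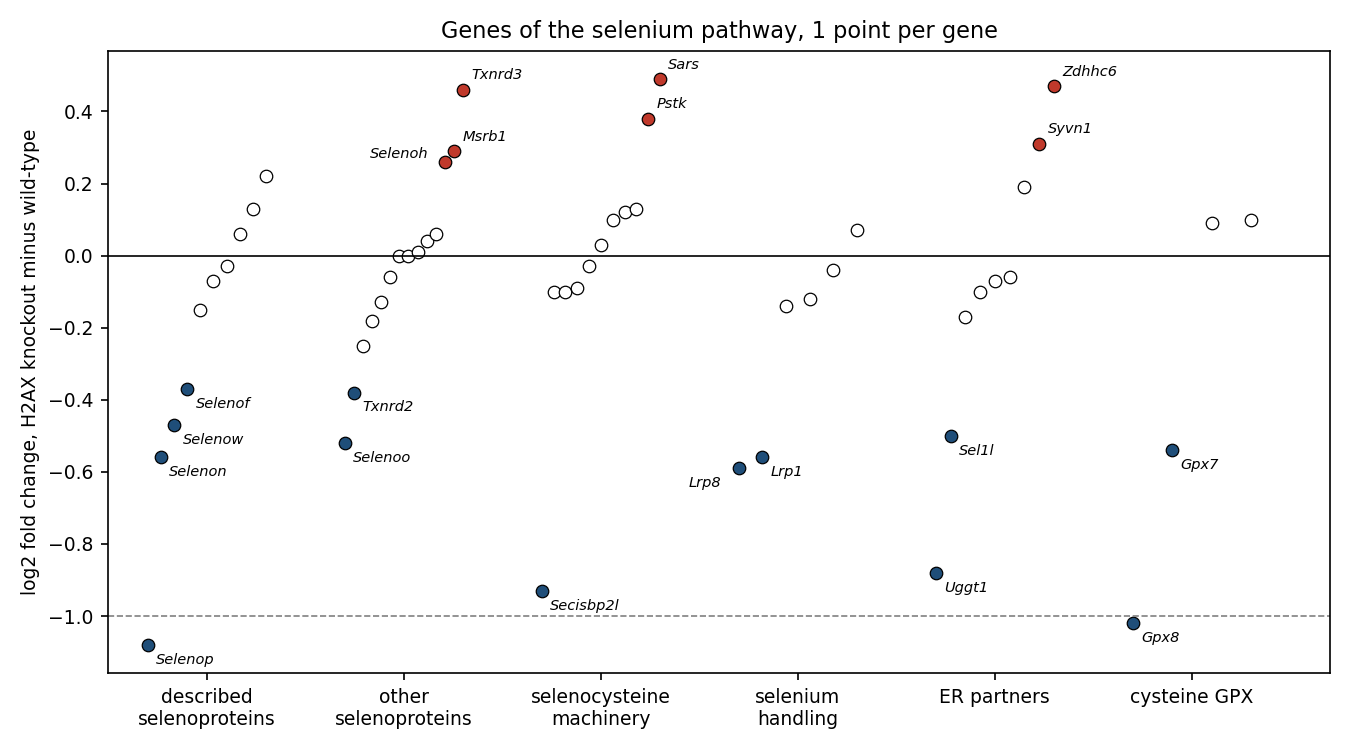
Log2 fold change, H2AX knockout minus wild-type, on the y axis, with 1 point per measured gene in 6 lists and the dashed line at a 2-fold decrease. Red points were called higher, blue points lower, and open points were not called at an adjusted p under 0.05. Selenop at -1.08 and Gpx8 at -1.02 lie below the dashed line, and the highest point is Sars at 0.49.

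The genes whose pattern over the 6 arrays lay nearest to that of Selenop, by the root mean square difference after each gene was centred on its own mean, were Mir99a, Hecw2 and Cacna1i. The differences were 0.0741, 0.0842 and 0.0938 log2 units, and Pearson's r with Selenop was 0.992, 0.990 and 0.985 over the 6 arrays. The log2 fold changes were -1.12 for Mir99a, a microRNA gene, -1.15 for Hecw2, a ubiquitin ligase gene, and -1.08 for Cacna1i, a calcium channel gene. Mir99a read 4.61, 4.63 and 4.75 in knockout cells, below the first quartile of all probe sets (4.80 to 4.85), so that the size of its fall is uncertain. Such likeness is common here, since 993 of the other 19937 genes, or 4.98%, had an r over 0.95 with Selenop, and the arrays share the split by genotype. Among the members, r with Selenop was highest for Selenow, at 0.96, and lowest for Sephs2, at -0.73.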

How the data were processed

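RNA of 6 MEF samples (3 wild-type, 3 H2AX knockout, grouped by the labels) was hybridized to Affymetrix arrays. CHP files came from Affymetrix Expression Console, after which the authors used Partek (version 6.6) for normalization. What they deposited is 1 log2 value per array for each of 35556 probe sets, with background correction and summarization not given in the sources used here. Probe set identifiers are those of version 1.0 of the Mouse Gene ST array, and the methods give version 2.0. Array medians lay between 6.06 and 6.12. Of 23410 annotated probe sets, 21789 carry 1 symbol, updated through gene identifiers for 21698 of them. The probe set with the highest mean was taken per gene.

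Genotypes were compared over 19938 genes with limma (version 3.58.1, R version 4.3.3; lmFit and eBayes, no covariate), two-sided, with Benjamini-Hochberg adjustment over all genes, and the code was tested on simulated data. With 3 arrays in each genotype, the smallest p of an exact permutation test is 0.10. The members, the lists and the naming rule were chosen with earlier results of these data known. Named were all members, up to 2 rises and 2 falls per list, the 3 genes nearest to Selenop, H2ax and the Y-linked genes. Other list genes and markers were named after their values were seen, as were the motifs. Ddx3y, Serpina1a and Cfd were not measured, for want of a probe set of their own. In the marker lists of adipocytes 1 of 4 measured genes was higher (Pparg), of macrophages 1 was higher and 1 lower of 5, of endothelium 2 were lower of 5 and of epithelium none was called of 5 (1 higher at an unadjusted p under 0.05). The 14 alternatives were the replicate block, leaving out each array, the one-way ANOVA of the methods, quantile normalization, centring on array medians, a robust variance prior with a trend, a filter that drops the dimmest 50% of genes, averaging of probe sets within a gene, and adjustment over all probe sets. A fold-change over 2 was also applied. No batch or scan date is given in the sources used here.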

Additional observations from a re-analysis of the deposited data

How the results depend on the processing

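Selenop, Selenof, Selenon and Selenow were lower and called under all 14 alternatives, with adjusted p of Selenop between 8.8e-06 and 0.00741. Over the 10 members, 134 of 138 alternative values kept direction and side of the threshold, 3 passed the threshold (Gpx1 and Sephs2, given above) and 1 turned, Gpx3, at 0.012 without wild-type replicate 2 (-0.075 to 0.012 when any array was left out). The count of higher members was 1 after quantile normalization and 0 to 1 when an array was left out, and 1 member was lower at a fold-change over 2. Of the other selenoproteins, 1 was higher and 1 lower in the one-way ANOVA, and 4 were lower after quantile normalization. In the selenocysteine machinery 1 gene was higher in the one-way ANOVA and with all probe sets, and 1 to 2 when an array was left out. For the 20 called genes of the other lists, with H2ax and the Y-linked genes, 261 of 277 values kept their side and 16 lost the call, all of Txnrd2, Txnrd3, Selenoh or Pstk. The cause was not tested. Gpx3 and Selenok fell outside the filter on the dimmest 50% of genes and were not tested under it. Replicate numbers did not pair the arrays (correlations of deviations of -0.293, -0.239 and 0.08 for numbers 1, 2 and 3), and with the replicate block 5810 genes were called in place of 6666, with 0 higher and 4 lower members and Txnrd3 (0.46) not called. Scaling moved the median over all genes by less than 0.1 on the log2 scale. The number of arrays limits the precision.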
